A study of Mus musculus with 6 samples.

Results

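The genes described here encode the proton pump of lysosomes and endosomes (the V-type ATPase), the cathepsin proteases, the lysosomal membrane proteins LAMP1 and LAMP2, the lysosomal cation channel mucolipin 1 and the transcription factor TFEB. They were taken as every gene whose single annotated symbol starts with Atp6v, consists of Cts and 1 further lower-case letter or digit, or is Lamp1, Lamp2, Mcoln1 or Tfeb. This gave 45 of 19938 genes with 1 symbol, made up of 8 subunit genes of the membrane sector V0, 13 of the cytosolic sector V1, 20 cathepsins and 4 others. The rule itself used names only, but it was set with earlier results of these data known. RNA of AML-12 cells, a mouse hepatocyte line, was hybridised to Affymetrix Mouse Gene 1.0 ST arrays. The siMnSOD group had 3 arrays of cells that stably carried a retroviral hairpin against Sod2, the gene of manganese superoxide dismutase. The siScramble group had 3 arrays of cells with a scrambled hairpin that recognises no gene. Both groups shared the vector, puromycin selection and culture in serum-containing medium with gentamycin and kanamycin, had no other treatment, and were thawed from several frozen batches. The hairpin was designed for a low degree of silencing, and the labels do not say whether each replicate had its own transduction, so p-values measure the spread between these arrays.

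Lysosomes break down proteins, lipids and sugars at acid pH. The V-type ATPase sets that pH: V1 hydrolyses ATP and turns a rotor, and V0 carries protons across the membrane. Cathepsins are the main lysosomal proteases, most of them cysteine proteases, with Ctsd and Ctse encoding aspartic proteases, Ctsa a serine carboxypeptidase and Ctsg a serine protease of granulocytes. TFEB and its relatives bind E-box motifs in promoters of lysosomal genes and raise their transcription when nutrients are short. In hepatocytes this system handles autophagy and the breakdown of endocytosed protein.

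The E-box that TFEB relatives favour is shown first, because it stood in promoters of pump, protease and channel genes alike. RefSeq promoter windows of build GRCm38.p6, from 250 bases before to 50 bases after a gene's start, were matched for 35 of the 45 genes. The palindrome TCACGTGA, which reads the same on both strands, occurred in windows of 6 of these 35 genes (17.1%), against 1.12% of the 27025 genes in the table. Its core CACGTG occurred in 10 of 35 (28.6%) against 8.09% of all genes, and these 10 include the same 6. A longer palindrome, with a G before and a C after those 8 bases, was found in none of the 35 genes and in 0.370% of all genes. These are matches of letters and do not show binding. The stretches of the 6 genes follow, 5′ to 3′ on the strand of the gene, with the palindrome in capitals and 30 bases on each side.
Atp6v1a: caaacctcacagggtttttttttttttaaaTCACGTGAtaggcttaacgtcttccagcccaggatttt
Atp6v0d1: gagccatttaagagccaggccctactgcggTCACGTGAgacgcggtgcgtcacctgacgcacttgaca
Atp6v0e: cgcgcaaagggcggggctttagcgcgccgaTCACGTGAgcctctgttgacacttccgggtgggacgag
Ctsa: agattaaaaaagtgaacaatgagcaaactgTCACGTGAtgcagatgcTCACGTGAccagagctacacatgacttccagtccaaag
Ctsd: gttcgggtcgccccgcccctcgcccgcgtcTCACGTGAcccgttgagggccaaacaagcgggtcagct
Mcoln1: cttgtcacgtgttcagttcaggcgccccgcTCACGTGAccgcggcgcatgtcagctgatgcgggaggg

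In GRCm38.p6 the stretch of Atp6v1a lies at chr16:44139354-44139421 on the minus strand, that of Atp6v0d1 at chr8:105566031-105566098 on the minus strand and that of Atp6v0e at chr17:26676368-26676435 on the plus strand. The stretch of Ctsa, which holds the palindrome 2 times, lies at chr2:164833730-164833814 on the plus strand. That of Ctsd is at chr7:142387889-142387956 on the minus strand, and that of Mcoln1 at chr8:3500443-3500510 on the plus strand. The 6 genes did not share a direction. Their log2 differences, siMnSOD minus siScramble, were -0.48 for Atp6v1a, -0.13 for Ctsd, -0.07 for Atp6v0e, 0.02 for Ctsa, 0.13 for Mcoln1 and 0.26 for Atp6v0d1, and none of the 6 passed the test described next.

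Sod2 was lower on each knockdown array than on any control array, with a log2 difference of -1.63 (SE 0.30, adjusted p = 0.037 in limma) and 32.4% of the control level left. It lost the call in 4 of the 6 fits that left out 1 array (highest adjusted p 0.13). Replicate 3 stood apart in both groups. Pearson r across tested rows was 0.9960 and 0.9973 between replicates 1 and 2 of the knockdown and the control, but 0.9782 and 0.9792 between the third control array and the other two. Log2 intensities were compared with limma across the whole table, and a gene was called at an adjusted p under 0.05 (Benjamini-Hochberg over all tested rows). Over all genes 432 were called higher and 316 lower, so that 57.8% of calls were higher, or 72.3% (365 against 140) after centring arrays on their medians. Of 12 listed hepatocyte markers 10 were measured, and 9 of these had positive differences, against 10421 of all 19938 genes. Among the 10 markers 1 was called, where 3.75% of all genes were. This was Hnf4a, which rose (1.09, SE 0.14, adjusted p = 0.013 in limma). With the replicate block Krt8 also passed (0.59, adjusted p = 0.043), where 7.14% of all genes passed in that fit. The summed intensity of the 10 was 15586 to 17977 units over knockdown arrays and 10998 to 15024 over control arrays. Krt8 (4376 to 8926 units over the 6 arrays) and Krt18 (3713 to 6295) made up most of that sum on each array. The part of these markers in the results on lysosomal genes was not tested. Krt8, Krt18, Trf, Apob and Hnf4a read well above background, whereas Alb (3.50 to 4.02 on the log2 scale over the 6 arrays), Ttr and Afp lay under it in both groups. Apoa1 (a mean of 4.73 in each group) and Fgb (4.45 in the knockdown and 4.42 in the control) lay only a little above it.

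Counted by calls in either direction, the lysosomal genes as a group were close to the background of the whole table. Of the 45 genes 1 was called, the V1 subunit gene Atp6v1h, which fell, and none was called higher. That is 2.22% of the genes, against 3.75% of all genes called in either direction, 1.58% called lower and 2.17% called higher. The median log2 difference was -0.05, against 0.01 over all genes, and single genes ranged from -0.68 to 0.42. With dim probe sets filtered out the median was -0.10, against 0.00 over all rows of that fit. At an unadjusted p under 0.05 there were 9 genes, 8 lower and 1 higher, or 20% against 16.7% of all genes. For the lower direction alone the shares were 17.8% and 8.06%, and for the higher 2.22% and 8.61%. In bulk RNA, fewer cells with a transcript and less of it per cell cannot be told apart.

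**Figure D1:**
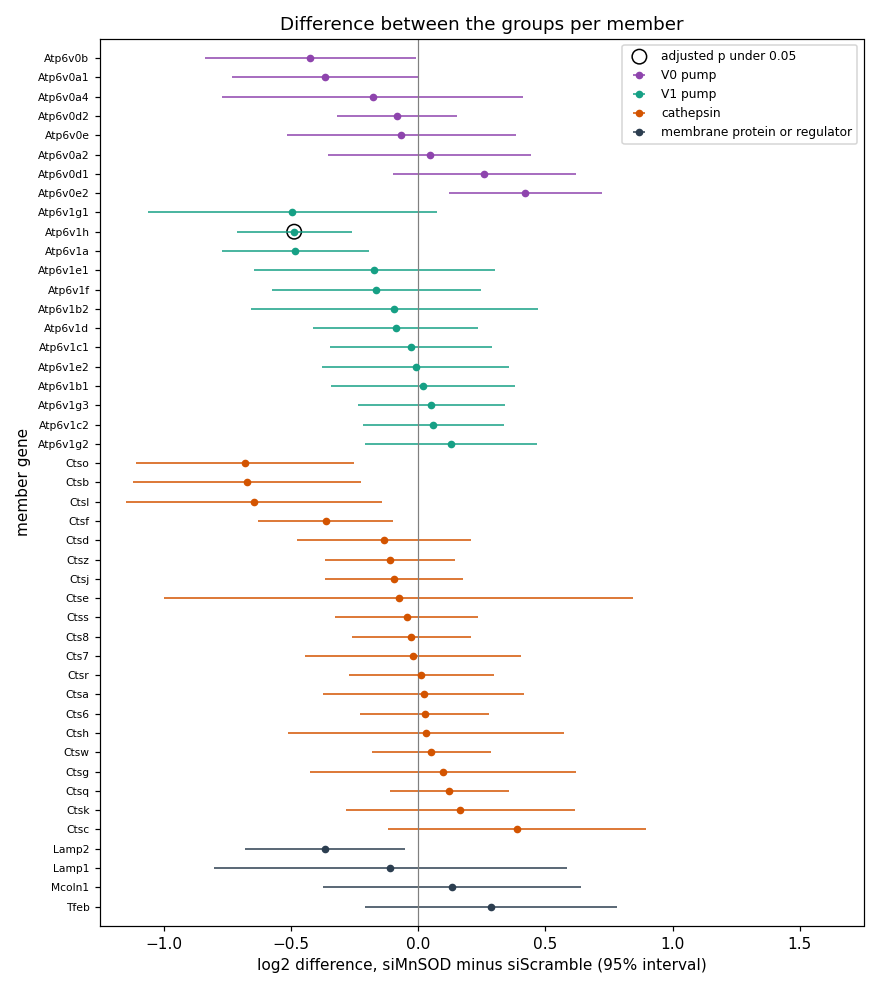
Log2 difference, siMnSOD minus siScramble, of each of the 45 genes with its 95% interval from the limma fit, ordered by role (V0 pump, V1 pump, cathepsins, others). Only the interval of Atp6v1h belongs to a called gene, and the points run from -0.68 for Ctso to 0.42 for Atp6v0e2.

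In 9 genes every knockdown array lay under every control array, and in 3 every knockdown array lay above. Together these were 26.7% of the 45 genes, against 20.9% of all genes (20% against 9.73% for lower, 6.67% against 11.1% for higher). The 9 lower genes were Atp6v0a1, Atp6v0b, Atp6v1a, Atp6v1h, Ctsb, Ctsf, Ctsl, Ctso and Lamp2. The 3 higher genes were Atp6v0e2, Ctsc and Ctsq, the last of them under background. The third control array was the highest of the 6 arrays for 21 of the 45 genes (46.7%), against 28.1% of all genes, and the lowest for 5 (11.1%), against 18.3%. Leaving out replicate 3 of both groups left 2 arrays per group. In that fit 9 genes passed as lower and 3 as higher, or 26.7% against 21.4% of all genes (20% against 9.69% for lower, 6.67% against 11.8% for higher). Those 9 were Atp6v0a1, Atp6v0a4, Atp6v1a, Atp6v1g1, Atp6v1h, Ctsb, Ctsf, Ctsl and Ctso, and those 3 were Atp6v0d1, Atp6v0e2 and Mcoln1. Without the third control array alone 5 passed as lower and none as higher, or 11.1% against 11.2% of all genes in either direction and 5.61% in each. With array quality weights 11 passed as lower and 2 as higher, or 28.9% against 23.4% (24.4% against 11% for lower).

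Log2 intensities were set against a background guide of 4.28, the 95th percentile of the mean values of 1027 olfactory receptor genes, taken as unexpressed in liver cells. By this guide 32 of the 45 genes had signal in at least 1 group and 13 lay under it in both, as 6816 of all 19938 genes did. Where a subunit has several isoforms, the widely expressed Atp6v0d1, Atp6v1b2 and Atp6v1g1 were well above the guide, whereas Atp6v0d2 (known from osteoclasts and macrophages), Atp6v1b1 (kidney and epididymis) and Atp6v1g3 (kidney) lay under it. Other tissue-restricted isoforms had signal, namely Atp6v0a4 (a mean of 6.02 in the knockdown, and 5.59 to 6.56 over control arrays), Atp6v1g2 of neurons (6.19 in the knockdown and 6.06 in the control), Atp6v1e2 of testis (4.84 and 4.85) and, just above the guide, Atp6v1c2 (4.50 and 4.44).

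**Figure D2:**
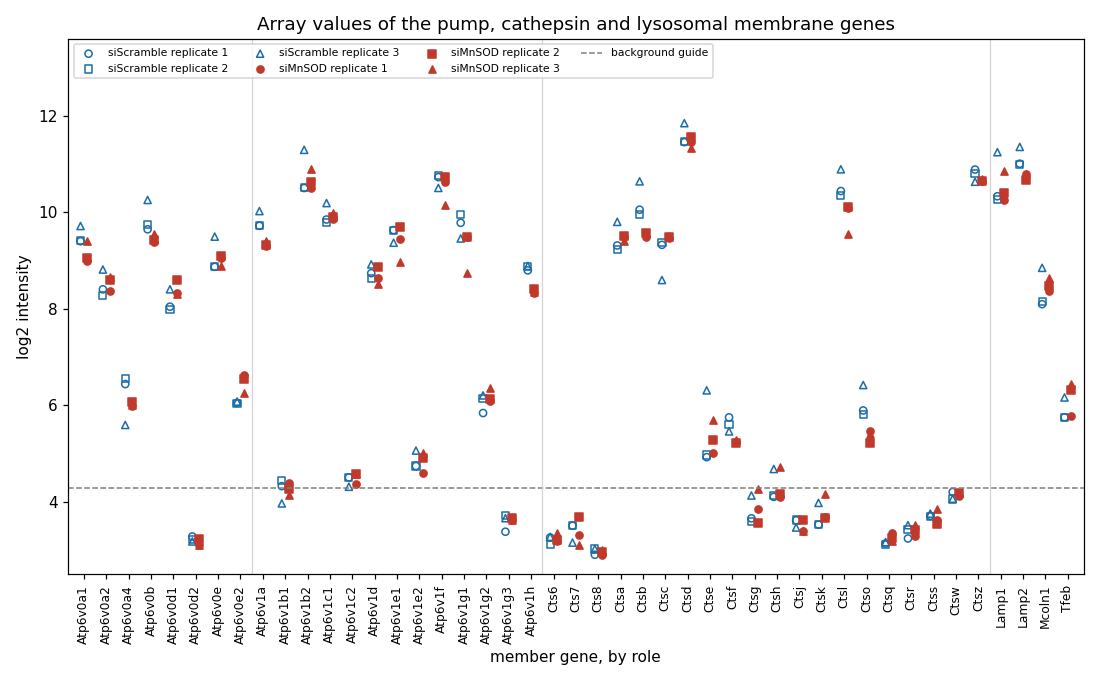
Log2 intensity of the 45 genes on each array, with open blue symbols for siScramble, filled red symbols for siMnSOD and 1 symbol shape per replicate number. The dashed line is the background guide of 4.28, and the 13 genes under it are 3 pump isoforms and 10 cathepsins.

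Among V1 subunits, Atp6v1h encodes subunit H, which regulates the coupling of V1 to V0. Its log2 intensities, given here and below in the order of replicates 1, 2 and 3, were 8.34, 8.42 and 8.35 in the knockdown and 8.80, 8.88 and 8.89 in the control. The groups were narrow and did not overlap, and replicate 3 lay with its group in both. The means were 8.37 ± 0.04 and 8.86 ± 0.05 (SD, n = 3 each), a log2 difference of -0.49 (SE 0.10, 95% interval -0.71 to -0.26), which is 71.3% of the control level. Its adjusted p was 0.045 in limma and 0.036 with the replicate number as a block, and an exact two-sided permutation test gave p = 0.1, the smallest that 3 against 3 arrays allow. The call was lost after median centring (-0.40, adjusted p = 0.17), with all probe sets tested (adjusted p = 0.078), with a trended robust prior (adjusted p = 0.070) and when any 1 array other than the third control was left out (highest adjusted p 0.19).

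Atp6v1a encodes catalytic subunit A, which binds and hydrolyses ATP with subunit B. It read 9.30, 9.33 and 9.42 in the knockdown and 9.72, 9.74 and 10.03 in the control. Every knockdown array was below every control array, and the third control array was the highest. The log2 difference was -0.48 (SE 0.12, 95% interval -0.77 to -0.19), with an adjusted p of 0.089 in limma. With the replicate block the adjusted p was 0.044, so that 2 of the 45 genes passed in that fit (4.44%, against 7.14% of all genes in either direction and 3.12% lower).

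The partner of subunit A gave no such separation. Atp6v1b2, the widely expressed subunit B gene and the pump gene with the brightest probe set, read 10.50, 10.64 and 10.90 in the knockdown and 10.51, 10.52 and 11.30 in the control. The groups overlapped, with replicate 3 the highest in each, and the difference was -0.09 (95% interval -0.66 to 0.47, adjusted p = 1 in limma). Atp6v1g1, of the peripheral stalk, had the V1 difference of largest size, -0.49 (95% interval -1.06 to 0.08, adjusted p = 0.40 in limma). Replicate 3 was the lowest of each group, at 8.74 and 9.46, and its second probe set gave -0.44. The other stalk genes Atp6v1e1 (-0.17) and Atp6v1g2 (0.13), the rotor genes Atp6v1d (-0.09) and Atp6v1f (-0.16), and Atp6v1c1 (-0.03) of the stator had intervals that included 0. Of all 13 V1 genes 9 had negative values, with a median of -0.09.

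V0 subunit genes went both ways. Subunit a anchors the stator and differs between compartments. Atp6v0a1 read 8.99, 9.06 and 9.40 in the knockdown and 9.40, 9.41 and 9.72 in the control, so that its groups almost touched, with a difference of -0.36 (95% interval -0.73 to 0.00, adjusted p = 0.31 in limma). Atp6v0a2, the isoform known from the Golgi apparatus, had 0.05 (95% interval -0.35 to 0.44). Atp6v0a4, known from kidney and inner ear, had signal here and split by replicate number. It was lower in the knockdown by -0.46 and -0.49 in replicates 1 and 2 and higher by 0.42 in replicate 3, where the control fell to 5.59 from 6.44 and 6.56. It passed as lower without the third control array (-0.48, adjusted p = 0.032 in limma). That was 1 of the 6 fits that left out 1 array, and it passed in no other of them. With all arrays Atp6v0a4 had -0.18 (adjusted p = 0.96).

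Of the proton-carrying rotor ring, Atp6v0b was represented. It read 9.38, 9.44 and 9.56 in the knockdown and 9.65, 9.74 and 10.26 in the control. The groups did not overlap, and the third control array stood well above the others. The difference was -0.42 (95% interval -0.84 to -0.01, adjusted p = 0.29 in limma), and -0.24 without the third control array. Atp6v0d1, which links the ring to the central stalk, had 0.26 (95% interval -0.10 to 0.62, adjusted p = 0.54), with 0.28, 0.60 and -0.10 within replicate numbers 1, 2 and 3. Without replicate 3 of both groups it passed as higher (0.44, adjusted p = 0.042 in limma), where 11.8% of all genes did.

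Both genes of the small subunit e had signal. Atp6v0e2 read 6.63, 6.54 and 6.25 in the knockdown and 6.05, 6.03 and 6.08 in the control. All knockdown arrays were above the tightly spaced controls, by 0.42 on average (95% interval 0.12 to 0.72), with an adjusted p of 0.14 in limma. Without replicate 3 of both groups it passed as higher (0.55, adjusted p = 0.0068 in limma), where 11.8% of all genes did. Atp6v0e had -0.07 (95% interval -0.52 to 0.38), with 0.19 and 0.23 in replicates 1 and 2 and -0.61 in replicate 3. Whether the paralogs differ in their response was not tested.

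Cathepsins fell into a group with signal and a group without. Under the guide lay all 6 measured genes of the placental cluster on chromosome 13 (Cts6, Cts7, Cts8, Ctsj, Ctsq and Ctsr), proteases of rodent trophoblast. Their log2 differences ran from -0.09 to 0.12. Also under it lay Ctsk of osteoclasts, Ctss of antigen-presenting cells, Ctsw of cytotoxic lymphocytes and Ctsg of granulocytes. Ctsh stood at the guide, at 4.33 and 4.30. A change in these genes could not be seen at this signal.

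Among the 20 cathepsins 4 had an unadjusted p under 0.05, all 4 lower, and none was called. Of all genes 16.7% lay under that p, 8.06% in the lower direction. The 4 were among the 10 cathepsins with signal in at least 1 group, which include Ctsh at the guide. Ctsb encodes cathepsin B, a cysteine protease of most cells. It read 9.49, 9.58 and 9.57 in the knockdown and 10.06, 9.96 and 10.65 in the control. The knockdown arrays agreed within 0.1, and the third control array was far above the other controls. The difference was -0.67 (SE 0.19, 95% interval -1.12 to -0.23), or 62.7% of control, with an adjusted p of 0.12 in limma. Without the third control array it was -0.46 and passed, with an adjusted p of 0.036 in limma. In that fit 11.2% of all genes passed, 5.61% as lower. Ctsb passed in 1 of the 6 fits that left out 1 array (highest adjusted p 0.33).

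Ctsl encodes cathepsin L, a cysteine endopeptidase that also processes other lysosomal enzymes. Its values were 10.10, 10.11 and 9.54 in the knockdown and 10.44, 10.35 and 10.90 in the control. The groups did not overlap, but replicate 3 was the lowest array of the knockdown and the highest of the control. The same-numbered differences were thus -0.35, -0.24 and -1.35, around a mean of -0.65 (95% interval -1.15 to -0.14, adjusted p = 0.17 in limma). Without replicate 3 of both groups the value was -0.29 (adjusted p = 0.046 in limma), in a fit where 9.69% of all genes passed as lower.

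Ctso encodes a less studied cysteine protease. It read 5.46, 5.22 and 5.41 in the knockdown and 5.90, 5.82 and 6.42 in the control, again without overlap and with the third control array highest. Its difference of -0.68 (95% interval -1.11 to -0.25) had an adjusted p of 0.10 in limma, or 0.047 without the third control array. Ctsf, of the cathepsin F group of cysteine proteases, read 5.24, 5.22 and 5.27 against 5.75, 5.61 and 5.46, a difference of -0.36 (95% interval -0.63 to -0.10, adjusted p = 0.15). Here the third control array was the lowest of the controls, and without it the value was -0.44 (adjusted p = 0.043 in limma). Ctso and Ctsf each passed in 1 of the 6 fits that left out 1 array (highest adjusted p 0.35 and 0.46 in limma).

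**Figure D3:**
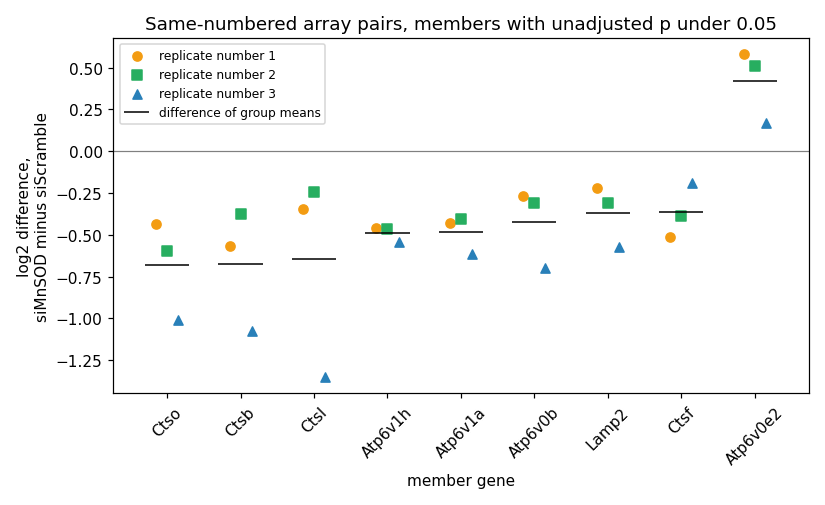
Log2 difference, siMnSOD minus siScramble, within each same-numbered pair of arrays for the 9 genes with an unadjusted p under 0.05, with a line at the difference of group means. All 3 pairs share 1 sign in each of these genes, which any pairing would give because their groups do not overlap. In Ctsl, Ctsb, Ctso and Atp6v0b the pair of replicate 3 lies far below the others.

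Within same-numbered pairs, 11 of the 45 genes were lower in all 3 (24.4%, against 19.8% of all genes) and 6 were higher in all 3 (13.3%, against 22.6%). The remaining cathepsins with signal showed smaller or mixed differences. Ctsd, the aspartic protease with the brightest cathepsin probe set, read 11.47, 11.57 and 11.33 in the knockdown and 11.46, 11.47 and 11.85 in the control. Its groups overlapped, with a difference of -0.13 (95% interval -0.48 to 0.21, adjusted p = 0.90 in limma). Ctsc encodes cathepsin C, which activates granule serine proteases. It read 9.48, 9.49 and 9.51 in the knockdown and 9.33, 9.38 and 8.60 in the control, so that its difference of 0.39 (95% interval -0.12 to 0.89, adjusted p = 0.49) came mostly from replicate 3 (0.91, against 0.15 and 0.11). Ctsz, a carboxypeptidase, had -0.11 (95% interval -0.37 to 0.15), and Ctsa 0.02 (95% interval -0.37 to 0.41). Ctse, an aspartic protease of stomach and immune cells, spread more within the control (4.93, 4.97 and 6.31) than between groups (-0.08, adjusted p = 1 in limma).

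**Figure D4:**
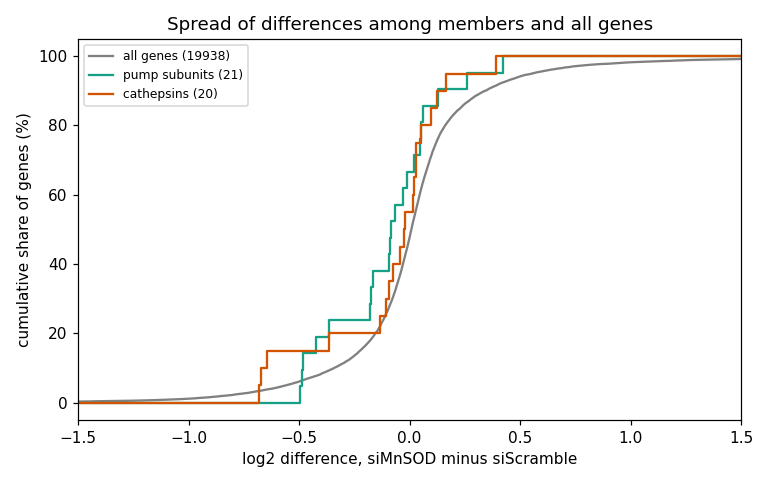
Cumulative share of genes (%) against the log2 difference, siMnSOD minus siScramble, for 19938 genes (grey), 21 pump subunit genes (green) and 20 cathepsins (orange). The steps at the left are the cathepsins Ctso, Ctsb and Ctsl between -0.68 and -0.65 and pump genes from -0.49.

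LAMP1 and LAMP2 are the abundant glycoproteins of the lysosomal membrane. Lamp2, whose product also serves chaperone-mediated autophagy, read 10.79, 10.67 and 10.79 in the knockdown and 11.01, 10.99 and 11.36 in the control. The groups did not overlap, and the difference was -0.37 (95% interval -0.68 to -0.05), with an adjusted p of 0.22 in limma. Lamp1 read 10.26, 10.41 and 10.85 against 10.34, 10.26 and 11.25, and its groups overlapped (-0.11, 95% interval -0.80 to 0.58). In both groups its replicate 3 was the highest.

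Mcoln1 and Tfeb had values above 0 that did not pass with all arrays. Mcoln1 read 8.38, 8.48 and 8.64 in the knockdown and 8.10, 8.15 and 8.85 in the control. Replicates 1 and 2 were higher in the knockdown (0.28 and 0.33) and replicate 3 was lower (-0.21), with a mean of 0.13 (95% interval -0.38 to 0.64, adjusted p = 0.98 in limma). Without replicate 3 of both groups it passed as higher (0.30, adjusted p = 0.046 in limma), where 11.8% of all genes did. Tfeb read 5.77, 6.32 and 6.44 in the knockdown and 5.75, 5.75 and 6.16 in the control, with overlapping groups and a difference of 0.29 (95% interval -0.21 to 0.78, adjusted p = 0.70). A transcript level of Tfeb does not measure the activity of its protein, which is set mainly by phosphorylation and entry into the nucleus.

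Other genes of the lysosome were counted by lists. Of 32 measured acid hydrolases 1 rose, the beta-glucuronidase gene Gusb (0.57, SE 0.10, adjusted p = 0.030 in limma), and none fell, with a list median of 0.00. As in the next list, the share called is close to the 3.75% of all genes, and 5 hydrolase genes had an unadjusted p under 0.05, against 16.7% of all genes. The acid alpha-glucosidase gene Gaa passed as lower with the replicate block (-0.78, adjusted p = 0.023 in limma). Gusb read 8.16, 8.18 and 8.06 in the knockdown and 7.56, 7.51 and 7.61 in the control. Among 21 lysosomal membrane and transport genes 1 fell and none rose, with a median of -0.04 and 2 genes at an unadjusted p under 0.05. This was Npc1, which exports cholesterol from the lysosome, with 7.75, 7.94 and 8.13 in the knockdown against 8.79, 8.84 and 9.27 (-1.03, SE 0.17, adjusted p = 0.027). Gusb and Npc1 each lost the call in 4 of the 6 fits that left out 1 array (highest adjusted p 0.16 and 0.14).

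No member passed among 12 genes of pump accessory and assembly factors (median -0.13), 11 of sorting to lysosomes (median -0.16), 21 of TFEB relatives and nutrient sensing (median -0.18) or 13 of protease inhibitors, mostly of cathepsins (median 0.07). Over all genes 3.75% were called. In the 4 lists, counts at an unadjusted p were as follows. At an unadjusted p under 0.05 they held 3, 6, 7 and 3 genes in that order, where 16.7% of all genes lay under it. The genes with the smallest p were Oxr1 (-0.70, adjusted p = 0.093), a gene of oxidation resistance with a domain that binds the pump, Ap1m1 (0.42, adjusted p = 0.068), an adaptor subunit of clathrin coats, Fnip1 (-0.89, adjusted p = 0.062), a partner of folliculin, and Ctla2a (-0.72, adjusted p = 0.11), a propeptide-like inhibitor of cathepsins. With the replicate block 4 genes of these lists passed in limma, where 7.14% of all genes passed in that fit. They were Dmxl2 (-0.87, adjusted p = 0.016), a pump assembly factor, Lamtor5 (0.50, adjusted p = 0.037), of the complex that anchors nutrient sensing to the lysosome, Ap1m1 (adjusted p = 0.047) and the endocytic receptor gene Lrp1 (-0.98, adjusted p = 0.048).

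No marker of other cells that express cathepsins strongly was called, where 3.75% of all genes were. At that share, the absence of calls in lists this short tells little about these markers. Of 16 macrophage and leukocyte markers 9 lay under background in both groups, including Ptprc and Adgre1. The 7 above it were Cd14 (7.69 in the knockdown and 7.42 in the control), Mrc1 (6.16 and 6.18), Cd68 (5.27 and 5.36), Prf1 (5.06 and 5.11), Csf1r (4.74 and 5.02), Cd3e (4.71 and 4.75) and Marco (4.45 and 4.33). The groups did not overlap in 1 marker that was higher, Cd14, and 1 that was lower, Lyz2, which lay under background. Over all genes 20.9% did not overlap. The summed intensity of all 16 was 529 to 597 units over knockdown arrays and 521 to 553 over control arrays. Among 6 osteoclast markers 4 lay under background, and among 5 trophoblast markers 3, with summed intensities of 114 to 132 and 89.1 to 110 units in the knockdown and 112 to 122 and 86.0 to 107 units in the control. None of the 8 endothelial (6 under background) or 9 stellate and fibroblast markers (4 under background) was called.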

How the data were processed

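RNA of 6 AML-12 samples was measured on 1 array each, 3 siMnSOD and 3 siScramble. The authors deposited linear, normalized intensities, made with RMA per the submitters' processing notes, whereas per the labels' design text MAS5 scaling was used. The RMA version and background correction are not given in these sources, and the number of arrays limits precision. A platform annotation gave 1 symbol for 21789 of 35557 probe sets, several for 1621 and no symbol for 12147. Entrez identifiers, of which those of 21698 probe sets matched a RefSeq table (GRCm38.p6), gave current symbols. The probe set with the highest mean stood for a gene (3 of the 45 genes had a second one), and 21559 rows were tested without a filter. Probe sets with several symbols, 4 of which held a symbol that fits the rule, were not taken into the 45 genes. Values were log2 transformed without a pseudocount and fitted in R 4.3.3 by limma 3.58.1 (lmFit, eBayes), with group as the only term. The script was tested on simulated data. The members, the lists, the background guide and the rule for naming genes were chosen with earlier results of these data known. The rule gave array values for genes called without or with the block, the brightest pump and cathepsin genes, Lamp1, Lamp2, Tfeb and Mcoln1, and for each list its called genes or the one of smallest p. Array values of other genes were added after they were seen. Deviations of same-numbered arrays from their group means correlated at 0.30, 0.29 and 0.56, but replicates 1 and 2 correlated more across numbers (0.47 and 0.41). These values do not establish that same-numbered arrays are pairs. They were paired in the replicate block and in the same-numbered differences, and not in the main fit. What the numbers stand for is not in the labels. Alternatives were median centring, quantile normalization, a pseudocount of 16, a filter on dim probe sets, all probe sets, the mean of probe sets, the replicate block, a trended robust prior, array weights and leaving out arrays.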

Additional observations from a re-analysis of the deposited data

How the results depend on the processing

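The direction of Sod2 and of the 9 genes with an unadjusted p under 0.05 was the same under all alternatives run. The median log2 difference of the 45 genes was not. It was -0.05 in the main fit and 0.04 after median centring. The median of all tested rows was 0.01 and 0.09 in these fits. Centring shifts the differences of all genes by the same amount. With array weights and without replicate 3 of both groups the median of the 45 genes was 0.01. Under the other alternatives it stayed below 0. Genes called higher and lower in the whole table were 801 and 623 with the replicate block, 2486 and 2188 with array weights, and 2343 and 1932 without replicate 3 of both groups. Called lower were 140 after median centring and 172 rows with all probe sets tested. Leaving out 1 array gave 52 to 1119 called higher and 25 to 1119 called lower. Of the 45 genes, the number called lower was 0 after median centring, with all probe sets and with the trended robust prior, 2 with the replicate block, 11 with array weights and 9 without replicate 3 of both groups. Leaving out 1 array gave 0 to 5. Called higher were 2 with array weights and 3 without replicate 3. Sod2 had -1.54 (adjusted p = 0.069) after median centring and -1.63 (adjusted p = 0.063) with all probe sets, and -1.88 to -1.27 with 1 array left out, where it lost the call in 4 of 6 fits. Atp6v1h had -0.40 after median centring and -0.49 with all probe sets and with the trended robust prior, none of which passed, and -0.52 to -0.47 with 1 array left out. Its adjusted p over all alternatives ran from 0.0018 to 0.19. Testing all probe sets adds rows to the adjustment, and leaving out arrays removes samples. The cause of the other changes was not tested. The replicate block changed no other call among the 45 genes than that of Atp6v1a.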
